A study of Bos taurus with 15 samples.

Results

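Death receptor signalling was followed through 9 genes listed by name: the receptors TNFRSF1A and FAS, the adaptors TRADD, FADD and TRAF2, the kinase RIPK1, the initiator caspases CASP8 and CASP9, and the caspase-8 regulator CFLAR. A probe belonged to a gene when its name in the scanner file was the symbol or its description gave the symbol in brackets. By that rule 8 of the 9 genes had a probe, and CASP9 had none. The 8 were among 14743 genes named on the array, and their 10 probes among 21475 bovine probes. FADD and RIPK1 had 2 probes each. The genes were selected on the difference between treated and untreated animals in these same arrays, with TRADD as the leading gene, so that difference is given below as a description with no test.

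Thymus was taken at the slaughterhouse from 15 Holstein cows, and the RNA of each animal was hybridised with 1 dye to its own array. The control group was 7 cows labelled as having no treatment. The other 8 cows had received prednisolone, a synthetic glucocorticoid, as a daily oral dose of 30 mg a head over 35 days. The labels name no age, farm or lobe of the thymus, and a replicate is 1 animal.

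Death receptors are surface proteins whose intracellular death domain recruits other death domain proteins once a ligand binds. FAS binds FADD directly, while the TNF receptor TNFRSF1A binds TRADD, which brings in RIPK1 and TRAF2 and can lead either to NF-kappaB activity and survival or, through FADD and caspase-8, to apoptosis. CFLAR, a caspase-8 relative without protease activity, competes for the same complex, and CASP9 acts in the separate mitochondrial route. In the thymus most developing T cells die by apoptosis, and immature thymocytes are known to be sensitive to killing by glucocorticoids.

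The arrays lay on 4 slides, and the groups were not spread evenly over them. Slides 1 and 3 held 3 controls and 1 treated animal each, slide 2 held 1 control and 3 treated animals, and slide 4 held only prednisolone animals 2, 4 and 7. The share of bovine spots above background ran from 67.13% to 77.75% over the arrays. Markers of thymocytes and T cells (15 of 18 genes measured) averaged 2.18 to 2.39 in controls and 2.22 to 2.43 in treated animals on the log2 scale used here, on which 0 is the 75th percentile of an array's bovine spots. Of all 16068 probes tested, 0% passed limma at an adjusted p under 0.05, and 7.08% had an unadjusted p under 0.05, 640 higher and 498 lower with prednisolone. The median difference over all probes was 0, and over the 10 member probes it was 0.05, with 6 higher. In this bulk tissue, fewer cells of a type and less RNA per cell cannot be told apart.

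All 10 member probes were kept by the filter on dim probes and had a spot above background on the arrays of all 7 control and all 8 treated animals. The 2 groups overlapped at every member probe, and among all probes the groups did not overlap at 18, or 0.112%. The plot of levels by animal shows each of the 10 probes over the same width of the log2 scale.

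**Figure D1:**
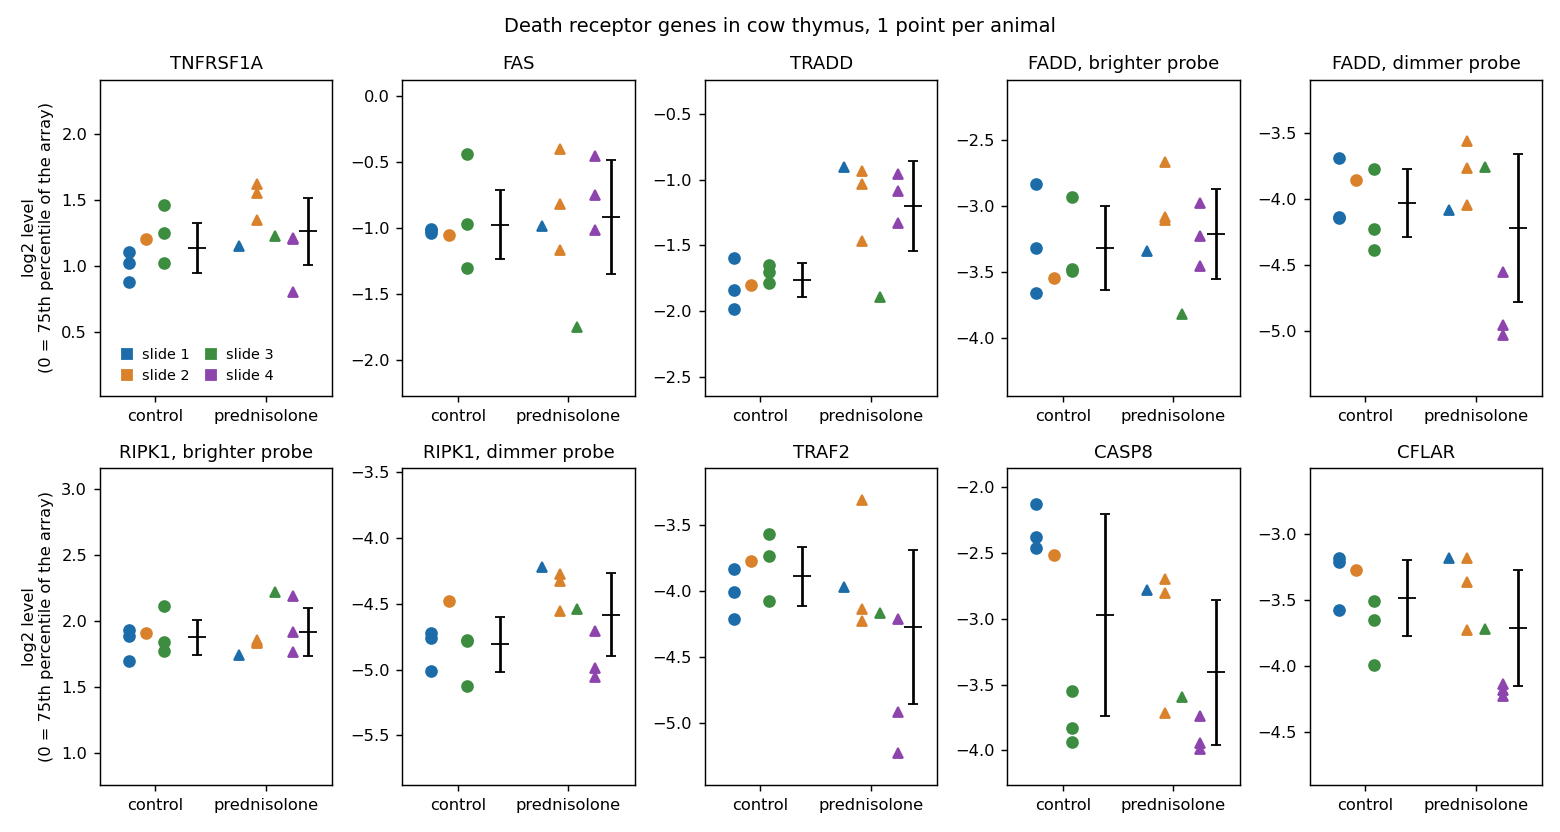
Log2 level of each member probe (vertical axis, 0 = 75th percentile of the array's bovine spots, 2.4 units high in every panel) in the 7 control animals (circles) and 8 prednisolone animals (triangles), coloured by slide; the bar beside each group is its mean ± SD. TRADD is higher in 7 of 8 prednisolone animals than in any control, while CASP8 falls into an upper and a lower range that both groups share.

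Among the receptors, TNFRSF1A, the main receptor for soluble TNF, had levels of 0.88, 1.11 and 1.46 (lowest, median and highest) in controls and 0.81, 1.22 and 1.62 in prednisolone animals. Most animals of both groups shared 1 range: 2 treated animals were above the highest control and 1 was below the lowest. The log2 difference, prednisolone minus control, was 0.13 ± 0.12 (SE, n = 7 and 8) and 0.15 ± 0.12 with slide as a block, smaller than the SD of either group (0.19 and 0.25). Within slides 1, 2 and 3 it was 0.15, 0.31 and -0.02.

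FAS, the receptor for FAS ligand, had levels of -1.31, -1.02 and -0.44 in controls and -1.75, -0.90 and -0.40 in prednisolone animals. Control 4, at -0.44, stood above the other controls, and prednisolone animal 1, at -1.75, was the lowest of all 15. The difference was 0.06 ± 0.18, and -0.18 ± 0.22 with slide as a block. Within slides 1, 2 and 3 it was 0.04, 0.26 and -0.85, the last from the single treated animal of slide 3. The FAS probe is printed at 2 places on the array, and its first spot was marked as an outlier and left out on all 3 arrays of slide 4. On prednisolone animal 1 the 2 spots read 270 and 528 in units of processed signal. From the first spot alone, over 7 controls and the 5 treated animals that had it, the difference was -0.28, and from the second alone, over all 15 animals, it was 0.21.

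TRADD, the adaptor that docks on TNFRSF1A, had levels of -1.98, -1.79 and -1.59 in controls. In prednisolone animals 1 to 8 it stood at -1.89, -1.09, -1.04, -1.33, -1.47, -0.91, -0.96 and -0.93. The controls lay close together, and 7 of 8 treated animals lay above the highest of them. Of all tested probes 0.429% had at least 7 of 8 treated animals above every control, a share that cannot be read as evidence here since TRADD was selected on this contrast. Prednisolone animal 1 lay inside the range of the controls.

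The TRADD difference was 0.56 ± 0.13 (SE), against SDs of 0.13 in controls and 0.34 in treated animals. With slide as a block it was 0.46 ± 0.18. It was 0.90 within slide 1 and 0.66 within slide 2, and -0.18 within slide 3, where the only treated animal was animal 1. Without that animal the difference was 0.66, and leaving out any other single animal gave 0.52 to 0.60. On the array of animal 1, 67.13% of bovine spots were above background, the lowest share of the 15. The mean of its adipocyte markers (4 of 7 genes measured, 3 of them above background on every array) was 0.54, the highest of the 15, against -3.45 to -0.40 in controls and -3.63 to 0.01 in the other 7 treated animals. Its skeletal muscle markers (5 of 6 genes measured) had a mean of -3.83, the lowest of the 15. Some other animals came near the adipocyte mean or the share of spots. Prednisolone animal 8 had an adipocyte mean of 0.01 and TRADD at -0.93, and prednisolone animal 6 had 67.41% of spots above background and TRADD at -0.91. Control 1 had 67.15% of spots above background and TRADD at -1.98, the lowest of the 15. The part of these in the TRADD level of prednisolone animal 1 was not tested.

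The TRADD difference came mostly from 1 of its 2 spots. The probe is printed in row 8, column 8, near a corner of the array, and again in row 393, column 78. At the first spot the difference was 0.93 and at the second it was 0.20. In control 1 the first spot read 112 and the second 412 in units of processed signal, and in prednisolone animal 4 they read 553 and 552. The first spot was the dimmer of the pair in all 7 controls, by 0.52 to 1.88 on the log2 scale with a median of 1.05. In treated animals the first minus the second spot was -0.98, -0.45 and 0.00 (lowest, median and highest). The mean of this gap was -1.14 ± 0.45 (SD, n = 7) in controls and -0.41 ± 0.32 (SD, n = 8) in treated animals, a difference of 0.74 ± 0.19 (SE), and of 0.48 with slide as a block.

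A gap of the TRADD size between copies of 1 probe was uncommon on these arrays. Its mean absolute value was 0.749, against a median of 0.134 over 16059 probes with 2 spots, and 5.37% of probes had a larger one. Over all these probes 0% differed between the groups in their gap at a limma adjusted p under 0.05, and 12.9% did at an unadjusted p under 0.05. The 160 other spots within 10 rows and columns of the first TRADD spot had a median gap to their own copies between -0.09 and 0.09 on every control array and between -0.08 and 0.03 on every prednisolone array. Neither spot was saturated or marked as an outlier on any array. Which of the 2 spots measures TRADD better was not tested.

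**Figure D2:**
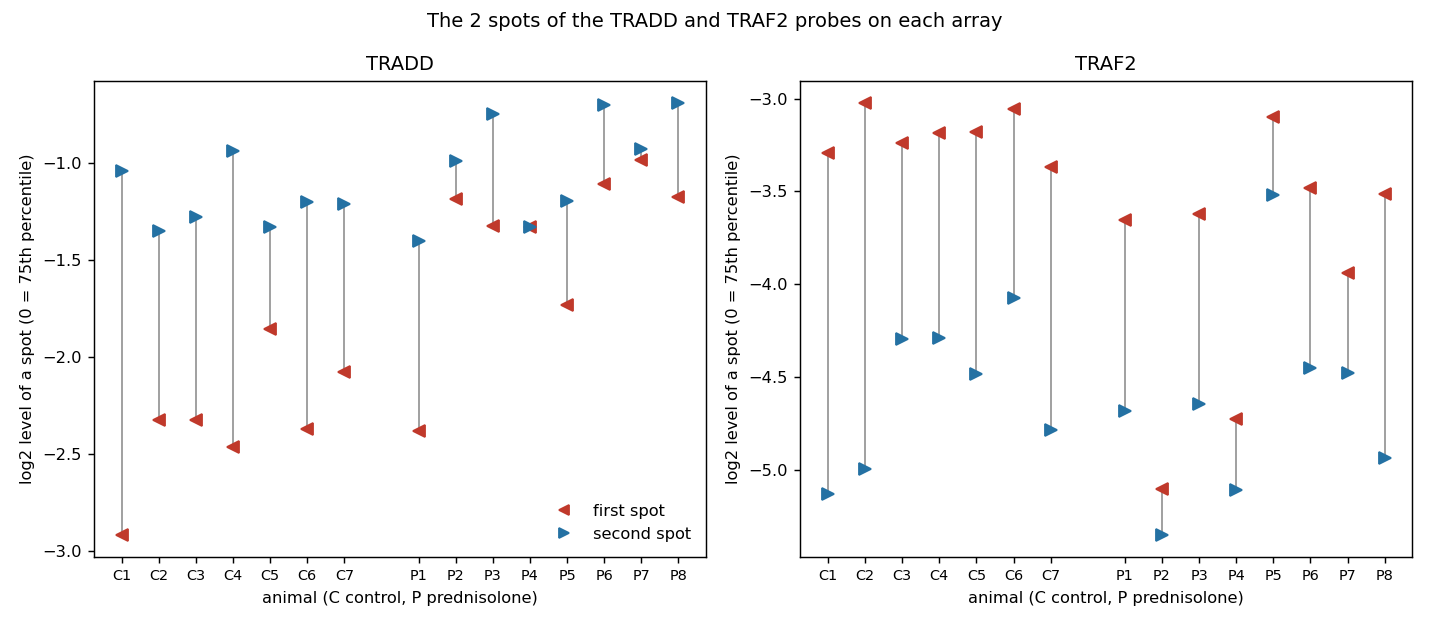
Log2 level (vertical axis, 0 = 75th percentile) of the first (red) and second (blue) spot of the TRADD probe on the left and the TRAF2 probe on the right, for each animal along the horizontal axis (C control, P prednisolone), with a line joining the pair. The red TRADD spots lie lower in controls than in 7 of 8 prednisolone animals while the blue spots overlap more, and for TRAF2 the red spots lie above the blue ones in every animal.

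FADD, the adaptor shared by FAS and the TRADD complex, had 2 probes, and they did not run the same way. The brighter one, A_73_117249, had levels of -3.66, -3.48 and -2.83 in controls and -3.82, -3.17 and -2.67 in prednisolone animals. The dimmer one, A_73_111855, had levels of -4.38, -4.13 and -3.68 in controls and -5.03, -4.06 and -3.56 in prednisolone animals. Both groups covered nearly the same range at the first probe, and at the second 3 treated animals lay below every control, the 3 of slide 4. The differences were 0.11 ± 0.16 and -0.19 ± 0.22 without the block, and 0.00 ± 0.22 and 0.12 ± 0.16 with it. The sign of the second probe thus turned once slide was in the model.

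TRAF2, the ubiquitin ligase of the TNF receptor complex that keeps it on the survival side, had levels of -4.21, -3.83 and -3.56 in controls and -5.23, -4.19 and -3.31 in prednisolone animals. Prednisolone animals 2 and 4 of slide 4 and animal 8 of slide 2 were below the lowest control, and animal 5 was above the highest. The difference was -0.38 ± 0.22, and -0.15 ± 0.22 with slide as a block. Inside slides 1, 2 and 3 it was 0.05, -0.12 and -0.38. Its probe is named TRAF2 only through the file's description, with no match by gene number or accession in the gene table. As with TRADD, the 2 spots of the probe disagreed: the first gave -0.70 and the second -0.07. Its mean absolute gap was 1.05, with 3.08% of probes having a larger one. The first spot was the brighter in every animal, by 1.02 to 1.98 in controls and by 0.25 to 1.43 in treated animals. It lies in row 3, near an edge of the array. The 219 other spots within 10 rows and columns of it had a median gap to their own copies of 0.055 to 0.216 on control arrays. On prednisolone arrays that median was -0.03 to 0.125. The part of this in the TRAF2 gap was not tested.

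RIPK1, the kinase that TRADD and TNFRSF1A recruit, also had 2 probes. The brighter, A_73_107190, had levels of 1.70, 1.89 and 2.12 in controls and 1.75, 1.85 and 2.22 in prednisolone animals. It carries the RIPK1 name only through the file's description, and its accession is not one that the RefSeq gene table (assembly ARS-UCD2.0) lists for RIPK1. The dimmer, A_73_114726, which the table does tie to RIPK1, had levels of -5.12, -4.78 and -4.48 in controls and -5.06, -4.55 and -4.23 in prednisolone animals. The first probe was nearly level between the groups, with a difference of 0.04 ± 0.09, while at the second 3 treated animals lay above every control. The difference at the second was 0.22 ± 0.14, and 0.35 ± 0.12 with slide as a block. It was 0.61, 0.09 and 0.36 within slides 1, 2 and 3, higher with prednisolone in each. From the first spot of that probe alone it was 0.13, and from the second spot 0.31. That probe was dim: in control 1 its spots read 27.4 and 25.2 in units of processed signal. The spot at 25.2 was not well above background.

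**Figure D3:**
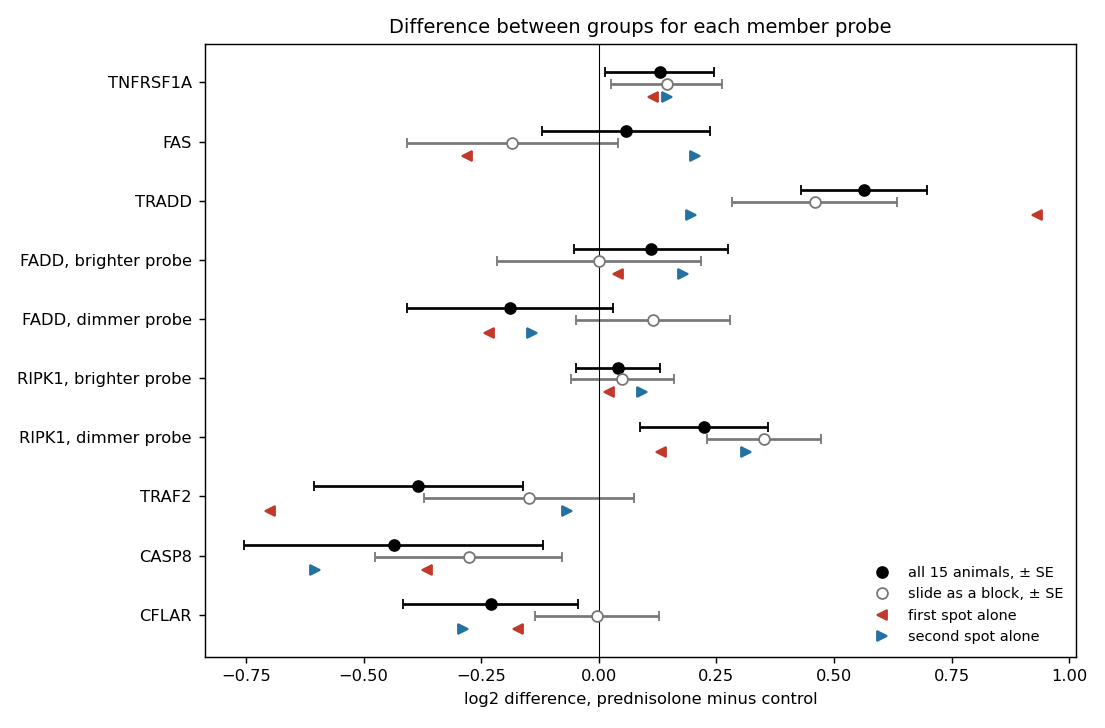
Log2 difference, prednisolone minus control (horizontal axis), for each member probe: filled black points are the mean over all 15 animals ± SE, open grey points the same with slide as a block ± SE, and triangles the value from the first (red) or second (blue) spot alone. For TRADD the spots give 0.93 and 0.20, for TRAF2 -0.70 and -0.07, and for FAS they lie on opposite sides of 0.

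CASP8, the protease that starts the death receptor cascade, had levels of -3.93, -2.52 and -2.13 in controls and -3.99, -3.66 and -2.70 in prednisolone animals. It varied more among controls than any other member probe, with an SD of 0.76 against 0.13 to 0.32 at the other 9. The difference was -0.44 ± 0.32, and -0.28 ± 0.20 with slide as a block. No treated animal was above the highest control and 2 were below the lowest. The second CASP8 spot was left out as an outlier on prednisolone animal 6, as was the second spot of the brighter RIPK1 probe on animal 2.

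CASP8 levels fell into 2 ranges with an empty stretch of 0.743 between them. The upper range, -2.80 to -2.13, held controls 1, 2, 3 and 5 and prednisolone animals 5, 6 and 8. The lower range, -3.99 to -3.55, held controls 4, 6 and 7 and prednisolone animals 1, 2, 3, 4 and 7. All 4 animals of slide 1 were in the upper range and all 7 animals of slides 3 and 4 in the lower, with slide 2 split. A stretch as wide in the middle of the 15 values, with at least 4 animals on either side, was found at 0.762% of kept probes. The ranges were drawn from these same values, so that share is a description only. The slide difference in CASP8 was large: given treatment, slides 3 and 4 were 1.29 and 1.24 below slide 1 on the log2 scale (limma F test over the slides, adjusted p = 0.00125).

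CFLAR, the regulator that holds caspase-8 in check at the receptor, had levels of -3.99, -3.51 and -3.18 in controls and -4.23, -3.73 and -3.18 in prednisolone animals. The 3 treated animals below the lowest control were those of slide 4. The difference was -0.23 ± 0.19 without the block and -0.00 ± 0.13 with slide as a block. Slide 4 was 0.89 below slide 1 (adjusted p = 0.00391 by the limma F test over slides).

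The slide test asked for differences between slides given treatment, while the genes were selected on the treatment difference. Slide was a block in part of that selection and the groups were uneven over slides, so the test is not fully separate from the choice. Given treatment, 30.6% of 16052 probes differed between slides at an adjusted p under 0.05, and 4 of the 10 member probes did: CASP8, CFLAR, the dimmer FADD probe (adjusted p = 0.00596, slide 4 lower than slide 1 by 0.92) and the dimmer RIPK1 probe (0.0338, lower by 0.50). The share among the members, 4 of 10, was near that of all probes. The limma adjusted p was 0.718 for TRADD, 0.0986 for TNFRSF1A, 0.0857 for TRAF2, 0.526 for FAS, 0.576 for the brighter RIPK1 probe and 0.738 for the brighter FADD probe. With normexp background correction none of the 10 passed, where 162 of all 16052 probes did. With quantile normalization CASP8 alone did, where 3765 of 16052 probes passed. Slide 4 held only treated animals, so on that slide treatment and slide cannot be told apart.

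Levels of direct binding partners were compared over animals in 4 pairs, with permutation p-values adjusted over the 4. TRADD and TNFRSF1A had a Pearson r of 0.298 (permutation p = 0.283, adjusted 0.377) and a Spearman rho of 0.282 (permutation p = 0.311, adjusted 0.316) over 15 animals. TRADD and RIPK1, using the brighter RIPK1 probe, had an r of -0.17 (permutation p = 0.543, adjusted 0.543) and a rho of -0.279 (permutation p = 0.316, adjusted 0.316). Neither relation of TRADD with its partners passed. Without the 2 animals farthest from the TRADD median the values of r were 0.166 and -0.011, and as deviations from slide means they were 0.485 and -0.197. The values over all animals include the treatment difference on which TRADD was selected. As deviations from group means r was 0.122 with TNFRSF1A and -0.416 with RIPK1 (permutation p adjusted over the 4 pairs, 0.699 and 0.23). With the dimmer RIPK1 probe, the one the gene table ties to RIPK1, r with TRADD was 0.36, the other way (permutation p adjusted over the 4 pairs, 0.366).

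FAS and FADD had an r of 0.635 (permutation p = 0.0104, adjusted 0.0207) and a rho of 0.639 (permutation p = 0.012, adjusted 0.0241) over 15 animals, using the brighter FADD probe. Of all other kept probes 0.71% had an r with FAS at least as high. Without the 2 animals farthest from the FAS median r was 0.304. With the 2 farthest of each setting left out, it was 0.306 with outlier spots kept and 0.409 with quantile normalization. The authors' values gave 0.457, normexp 0.48 and all probes averaged -0.011. It was 0.692 with median centring and 0.701 from the second spots alone, the 2 highest of all settings. Without prednisolone animal 1 or 3 r was 0.491 or 0.536 and did not pass. As deviations from slide means r was 0.605 (permutation p adjusted over the 4 pairs, 0.125). With the dimmer FADD probe r was -0.241, the other way.

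CASP8 and CFLAR had an r of 0.843 (permutation p = 0.00017, adjusted 0.00068) and a rho of 0.825 (permutation p = 0.00032, adjusted 0.00128) over 15 animals, the highest of the 4 pairs. Without the 2 animals farthest from the CASP8 median r was 0.809, and as deviations from group means it was 0.825. As deviations from slide means it was 0.586 (permutation p adjusted over the 4 pairs, 0.125) and did not pass. Of all other kept probes 3.93% had an r with CASP8 at least as high. The value over all 15 animals spans the 2 CASP8 ranges, which follow the slides in part. CFLAR lay between -3.58 and -3.18 in the 7 animals of the upper CASP8 range and between -4.23 and -3.51 in the 8 of the lower, with some overlap. Within the upper range r was 0.017 (exact permutation p = 0.978) and rho 0.179 (exact permutation p = 0.713, n = 7). Within the lower range r was 0.592 (exact permutation p = 0.123) and rho 0.595 (exact permutation p = 0.132, n = 8). The split on CASP8 itself narrows its range and leaves few animals, so that the values within a range do not bear on the relation over all animals.

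**Figure D4:**
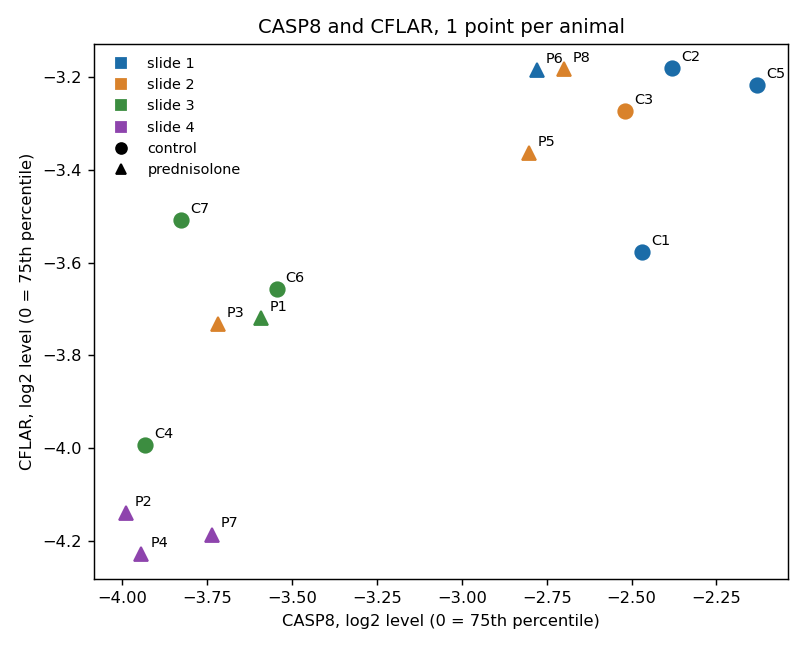
CFLAR against CASP8, both as log2 level (0 = 75th percentile), 1 point per animal, with controls as circles and prednisolone animals as triangles, coloured by slide. The animals form an upper and a lower group along the CASP8 axis, with slide 1 wholly in the upper, slides 3 and 4 in the lower, and slide 2 in both.

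The probes whose levels ran closest to TRADD over the animals were picked from 12836 kept probes of other named genes by Pearson r. They were ABCF3, an ATP-binding cassette protein (r = 0.851, n = 15), ZC3H7B, a zinc finger protein (0.831), GATD1 (0.829), RHBDF2, an inactive rhomboid protein (0.825), and POP4, a subunit of ribonuclease P (0.817, 12 arrays). As deviations from slide means the 5 values lay between 0.69 and 0.876. All 5 followed the first TRADD spot more closely, with r from 0.83 to 0.883, than the second, with r from 0.387 to 0.575. These values describe the ranking only, as the animals share slides and treatment and TRADD was selected on that treatment.

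The rest of the pathway was read through 4 gene lists with no member in them. No gene of any list passed in either direction (limma, adjusted over all probes), and 1 ligand, 1 receptor, 2 adaptors or kinases and 0 caspases or apoptosome genes had an unadjusted p under 0.05. These are 6.67%, 6.67%, 6.67% and 0% of the measured genes, beside 7.08% of all probes, and 49.9% of all probes were higher with prednisolone. Of the ligands 15 of 18 genes were measured, 9 higher and 6 lower with prednisolone, with a median difference of 0.08. Of the other receptors 15 of 27 were measured, 11 higher and 4 lower, with a median of 0.08. Of the adaptors, kinases and ubiquitin enzymes 30 of 36 were measured, 18 higher and 12 lower, median 0.02. Of the other caspases and their regulators 19 of 24 were measured, 8 higher, 10 lower and 1 level, median -0.01. None of the 4 medians was larger than 0.08 in size, beside 0 over all probes.

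The ligands with the smallest p were TNFSF13, which acts on B cells and plasma cells (-0.31 ± 0.14, limma adjusted p = 0.70), TNFSF4, the OX40 ligand (-0.42 ± 0.21, 0.707), and CD70, the ligand of CD27 (0.43 ± 0.24, 0.742, above background on 4 of 7 and 7 of 8 arrays). FASLG, the ligand of FAS, has a probe on the array that did not reach the filter on dim probes. Among the receptors they were TNFRSF8, known as CD30 (0.53 ± 0.21, limma adjusted p = 0.658, above background on 3 of 7 and 6 of 8 arrays), TNFRSF1B, the second TNF receptor (0.13 ± 0.08, 0.768), and TNFRSF9, known as 4-1BB (0.25 ± 0.19, 0.815). None of the 6 passed. With slide as a block the differences were -0.10 for TNFSF13, -0.11 for TNFSF4, 0.05 for CD70, 0.13 for TNFRSF8, 0.09 for TNFRSF1B and 0.24 for TNFRSF9. TNFSF4 was higher with prednisolone within slides 1 and 2, by 0.15 and 0.25, and differed by -0.74 within slide 3.

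Among adaptors and kinases, TAB1, the activator of the kinase TAK1 downstream of TRAF proteins, had levels of -3.24, -3.01 and -2.48 in controls and -2.80, -2.33 and -2.18 in prednisolone animals. At TAB1 6 of 8 treated animals were above the highest control, but the groups overlapped. Its difference was 0.49 ± 0.13 (limma adjusted p = 0.433) and 0.39 with slide as a block. It was 0.57, 0.31 and 0.29 within slides 1, 2 and 3. The next were PIDD1, a death domain protein of the caspase-2 complex (-0.61 ± 0.23, limma adjusted p = 0.655, and -0.32 with slide as a block), and IKBKB, the kinase that releases NF-kappaB (0.18 ± 0.10, 0.737).

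Among the caspases and their regulators, BIRC7, an inhibitor of apoptosis, differed by -0.43 ± 0.22 (limma adjusted p = 0.704), DIABLO, which relieves such inhibition, by -0.19 ± 0.11 (0.764), and CASP14, the skin caspase, by -1.08 ± 0.72 (0.788). With slide as a block BIRC7 differed by -0.43 and DIABLO by -0.27. The CASP14 value turned to 0.34 with slide as a block, and its probe was above background on 5 of 8 prednisolone arrays.

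**Figure D5:**
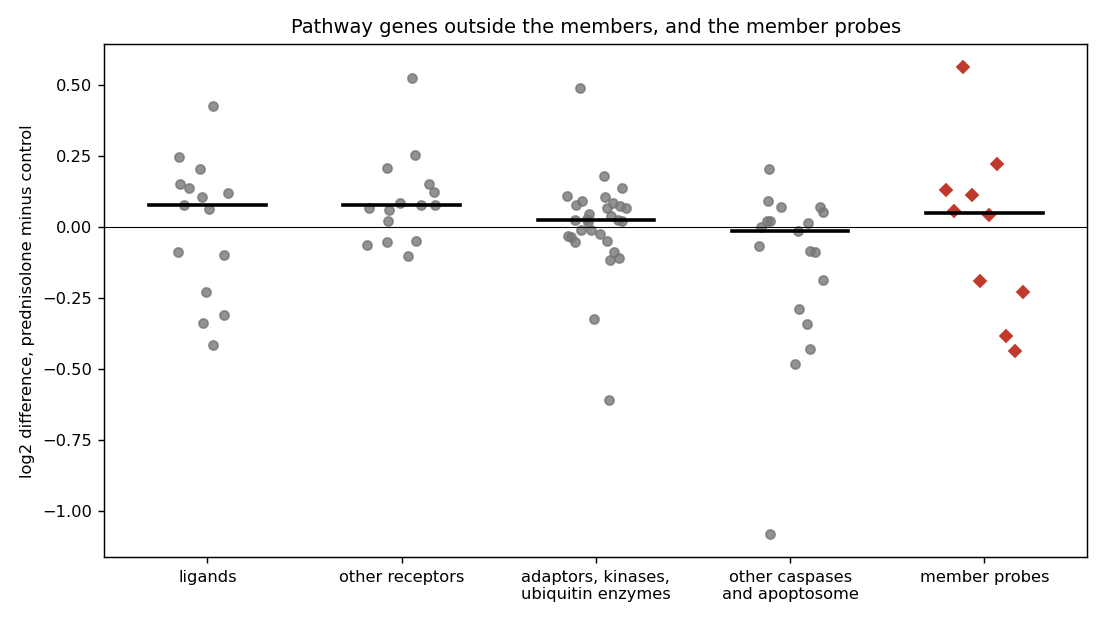
Log2 difference, prednisolone minus control (vertical axis), of each measured gene in the 4 pathway lists (grey points, placed sideways at random) and of the 10 member probes (red diamonds), with the median of each as a black line. Every median lies between -0.01 and 0.08, and TRADD is the highest of the member probes at 0.56.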

How the data were processed

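The scanner files give spot intensity as deposited, which Feature Extraction 9.5.1.1 background-subtracted and detrended, per the file headers. The submitters' processing notes name R 2.11.1. The authors also deposited intensity values on a linear scale, with medians of 184.8 to 271.2 on the arrays; their centring is unknown. They ranked spots as the processed signal did (Spearman at least 0.99962).

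Processed signals were taken to log2, and the 75th percentile over bovine spots was subtracted on each array. Outlier spots were left out and spots of a probe averaged. Probes with any spot well above background on at least 7 arrays were kept, 16069 in all, and 16068 were tested. The array number limits precision. Names came from the files and the RefSeq table (ARS-UCD2.0), with a symbol for 16425 probes.

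Groups follow the treatment label, and replicate numbers only name animals. Groups and slides were compared in limma (version 3.58.1; R 4.3.3), Benjamini-Hochberg adjusted p under 0.05, and correlations used 100000 permutations (scipy 1.17.1). The scripts were tested on simulated data. The members and lists were chosen with earlier results of these data known. Every member was named, from each list the 3 genes with the smallest p since none passed, the 5 probes most like TRADD, and a gene's brightest kept probe stood for it. Alternatives were quantile normalization, median centring, normexp (offset 50), the authors' values, outlier spots kept, other filters, other error models, array weights, slide as a fixed or random block, without slide 4, all probes of a gene averaged, correlations as deviations from slide or group means, and each animal left out. Single spots, the gap between spots and the dimmer probes of RIPK1 and FADD were added after seeing the data. So were the spots neighbouring those of TRADD and TRAF2, the CASP8 ranges with their share of probes, and the correlations of CASP8 with CFLAR within a range.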

Additional observations from a re-analysis of the deposited data

Results flagged for a closer look

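5 of 60 groups of values had a highest or lowest animal set far apart from the others of its group by Dixon's test, which chance alone gives in about 1 in 20 groups. FAS in control 4 was -0.441, and the next highest control was -0.966. The gap between the 2 spots of the brighter FADD probe was -0.118 in control 4, with the next lowest control at 0.031. The gap between the 2 spots of the brighter RIPK1 probe was -0.338 in prednisolone animal 1, with the next lowest treated animal at -0.147. The mean of the thymic epithelium markers was 0.953 in prednisolone animal 8, the lowest of its group, with the next at 1.408. The mean of the thymocyte and T cell markers was 2.433 in prednisolone animal 6, the highest of its group, with the next at 2.303.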

How the results depend on the processing

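Of 226 member differences recomputed under alternatives, 221 moved by less than 1 SD of the animals. A move of that size can still change the sign of a small difference. FAS did not keep its sign in 9 of 28 settings, and FADD did not in 4 of 29, some of them at 0. RIPK1 did not in 2 of 29 and CFLAR in 1 of 28, while TNFRSF1A, CASP8 and TRAF2 kept theirs throughout. TRADD was 0.141 with normexp, where the median over all probes was -0.205 and TRADD stood 0.346 above it, 0.931 from the first spot alone and 0.196 from the second. TRADD kept its sign in all 28 settings, most of which share nearly all of the data, and leaving out each animal gave 0.521 to 0.662. That count cannot be read as support, since TRADD was selected on this contrast. With normexp the brighter FADD probe was -0.385 and CFLAR -0.686. Probes passing between treatments, 0 in the report, were 1 with quantile normalization and 0 to 3 leaving out each animal (3 without prednisolone animal 1). Probes passing between slides were 162 with normexp, 8538 with no filter on dim probes and 4016 to 5039 leaving out each animal. For TRADD with TNFRSF1A, r was -0.213 with normexp. For TRADD with RIPK1, r was 0.13 with median centring, 0.233 with all probes averaged, 0.36 with the dimmer probe, and -0.439 to 0.0 leaving out each animal. For FAS with FADD, r was 0.469 with normexp, 0.182 with all probes averaged, 0.605 as deviations from slide means, 0.491 to 0.769 leaving out each animal, and turned to -0.241 with the dimmer FADD probe. For CASP8 with CFLAR, r as deviations from slide means over all 15 animals was 0.586. The cause of these shifts was not tested. No paired analysis was possible because the replicate numbers only name animals. All 10 member probes had a spot above background on all 15 arrays.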
